A study of Mus musculus with 12 samples.

Results

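The transcripts of WT mouse oocytes were compared between the growing stage and the fully grown germinal vesicle (GV) stage. Genes were taken into the comparison when they had at least 1 FPKM in at least 1 of the 4 WT libraries of these stages, which held for 11052 of the 23230 genes in the table. FPKM is the number of sequenced fragments of a gene, divided by transcript length and by library size. Each stage was represented by 2 libraries of 10 oocytes each, from females of a C57BL6/ICR hybrid background. The sample labels give growing oocytes from females 13.5 days old, and GV oocytes from females 21 days old, collected 44 h after PMSG, a gonadotropin that stimulates follicle growth. The study's methods give a slightly younger age for the growing oocytes, so the age is known only approximately. The same stages of Zar1/2-null females, which lack both members of the ZAR family of RNA-binding proteins and were kept on the same background, served to test whether the change of a gene differed between genotypes. Age and hormone treatment differ together with the growth stage and cannot be told apart from it. Ovulated (MII) oocytes of both genotypes, collected 16 h after hCG, a hormone given to bring on ovulation, make up the rest of the series. Their 2 libraries per genotype entered the model fit but no comparison reported here.

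During growth the mouse oocyte enlarges inside its follicle, transcribes strongly, builds its zona pellucida, exchanges metabolites with granulosa cells through gap junctions and lays down mRNAs for use after ovulation. Near its full size, chromatin condenses around the nucleolus and transcription stops, so that maturation and the first divisions run on stored mRNA. The mRNAs of the fully grown oocyte are held by a storage particle built of RNA-binding proteins, many of them with short poly(A) tails that are lengthened only at maturation. Smart-seq2, used here, starts cDNA from an oligo-dT primer, so the level it gives depends on a poly(A) tail as well as on the number of molecules.

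Synthetic ERCC RNA had been added in equal amount to each lysate, and the deposited FPKM values had been multiplied by an ERCC factor that sets each library relative to the WT growing library of the same replicate number. That factor, recovered from the digits of the values, was therefore 1 in both growing libraries, 0.836 in GV replicate 1 and 0.697 in GV replicate 2. A factor under 1 stands for less RNA per lysate than in that growing library, and the factors of both GV replicates cannot be compared with each other, since each depends on its own growing library. Differences between the growing libraries in RNA per lysate were thus not scaled. The study reports equal ERCC shares for both GV libraries and unequal shares for the growing libraries. The gap between the GV factors, 0.836 and 0.697, therefore comes mainly from the growing libraries. On the deposited scale that gap lies between the GV libraries, while both growing libraries are set to 1. Fewer oocytes cannot be told apart from less polyadenylated RNA per oocyte. Depths relative to growing replicate 1, read from the smallest steps of the unscaled values, were 1.21 for growing replicate 2, 1.01 for GV replicate 1 and 1.06 for GV replicate 2. Spearman correlations across the 11052 genes, which are not independent replicates, were 0.976 within each stage and 0.951 to 0.957 between stages. Of 20 granulosa and cumulus markers, 4 reached 1 FPKM and 3 were at 0 in all 4 libraries, and their summed level was 24.8 and 28.3 FPKM in growing against 14 and 16.3 FPKM in GV oocytes. Of the other cells' markers, 1 of 11 for theca and stroma (summed level 2.04 and 3.70 against 0.922 and 0.928 FPKM), 2 of 14 for immune cells and blood (21.3 and 24.5 against 11.9 and 12.5 FPKM) and 2 of 9 for epithelium (32.4 and 34.7 against 27.0 and 30.5 FPKM) reached 1 FPKM. Most of the granulosa sum came from Cyp19a1 (19.04 and 16.7 FPKM in growing oocytes). Most of the immune and blood sum came from C1qb (19.6 and 23.7 FPKM), and most of the epithelial sum from Cdh1 (27.5 and 29.4 FPKM). These sums therefore stand mainly for single genes. The markers Inha, Kitl, Hsd3b1, C1qb and Krt8 fell, while Cyp19a1, Fshr, Cd68 and Cdh1 were not called. Cd68 was at 0.996 and 0.458 against 1.56 and 0.655 FPKM. The part of other cells in the results was not tested.

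Most genes were lower in GV than in growing oocytes on the deposited scale, by a small amount. The median log2 difference (GV minus growing) was -0.30, and the quartiles were -0.55 and -0.05. The limma model was fitted on log2(FPKM + 1) over all 12 libraries, with Benjamini-Hochberg adjustment. These include the MII libraries, whose ERCC factors were 0.225 to 0.283 and whose spread enters the pooled variance. At adjusted p under 0.05, 3258 genes were lower in GV (29.5% of those tested) and 315 were higher (2.85%). With the ERCC factor divided out, the median was 0.02, and 371 genes were lower (3.36%) and 419 higher (3.79%). The share of calls that were higher was therefore 8.82% with and 53.0% without the factor. All 371 genes called lower without the factor were also called lower with it, 253 genes were called higher both ways, and none changed direction. With the factor averaged over the 2 libraries of each group, which removes the gap between the GV factors, the median was -0.29. In that setting 3699 genes were lower and 333 higher. Both GV libraries lay below both growing libraries in 60.2% of the genes, and above them in 10.3%. With 2 libraries against 2, the smallest p of an exact permutation test is 0.333, and limma instead pools the variance of the 6 groups. Without GV replicate 2 the calls fell to 858 lower and 184 higher, without growing replicate 2 to 1206 and 161, and without growing replicate 1 to 1972 and 217. Without GV replicate 1 they were 2894 and 199. In the text below a gene fell or rose when it was called on the deposited scale. The number that fell in a gene list is to be read against the 29.5% of all genes that fell, and the number that rose against the 2.85% that rose. The number called without the ERCC factor is given beside them.

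**Figure D1:**
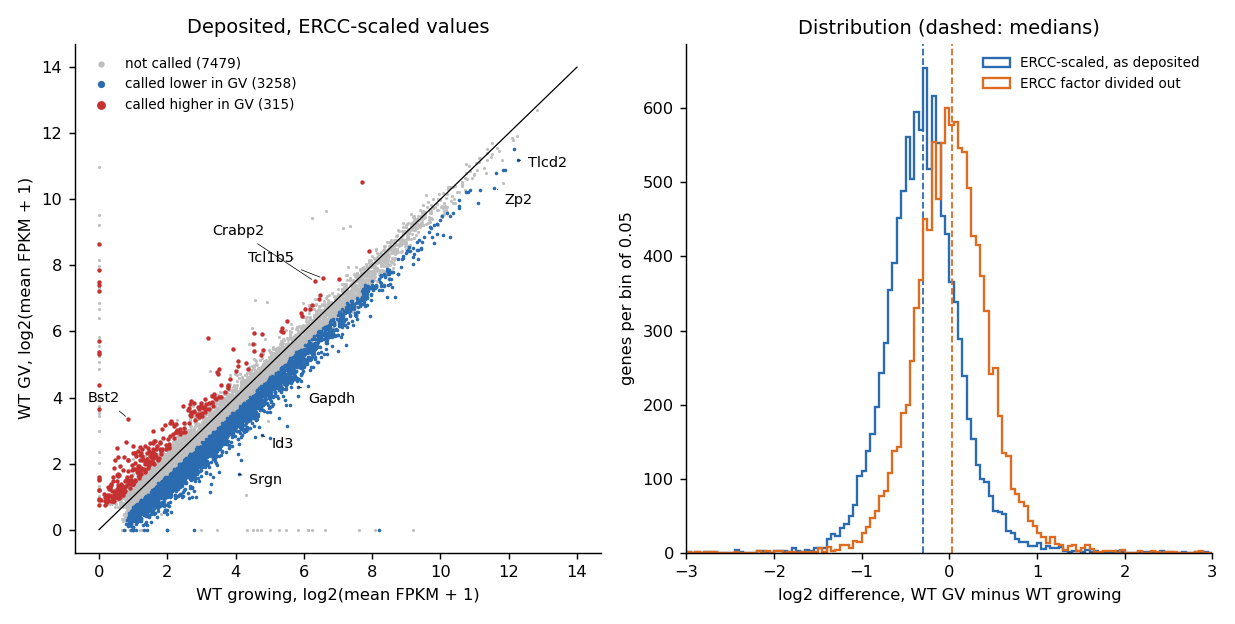
Left, the mean level of each of the 11052 genes in WT growing oocytes (x axis) and WT GV oocytes (y axis), both as log2(mean FPKM + 1) of 2 libraries, with the line of equality and the calls of limma in colour (315 higher, 3258 lower). Right, the number of genes by log2 difference with the ERCC factor (blue, median -0.30) and without it (orange, median 0.02), where 45 deposited differences lie outside the axis.

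Large differences were few. A mean more than 3-fold lower in GV, with means under 1 FPKM set to 1, was found for 89 genes (0.805%), and one more than 3-fold higher for 68 (0.615%). Small RNA genes made up 19 of the former and 45 of the latter, although only 85 of the 11052 genes are small RNA genes. Without the ERCC factor the balance turned, with 46 genes more than 3-fold lower and 107 higher. With small RNA genes also left out, these were 28 and 61. Without GV replicate 1, 167 genes were more than 3-fold lower. On the deposited scale, of the 10967 genes that are not small RNA genes, 10125 were within 2-fold, 744 more than 2-fold lower and 98 more than 2-fold higher. On that scale 361 genes (3.27%) had at least 1 FPKM in both growing libraries and under 1 in both GV libraries. The opposite pattern was found for 98 (0.887%). The GV factors under 1 favour the first pattern, and no count without them is given. The genes that rose were of low abundance, with a median of 1.43 FPKM in growing and 3.63 FPKM in GV oocytes. Among all genes these medians were 9.54 and 7.61 FPKM. Of the 315 risers, 86 had at least 10 FPKM in GV. Risers near 1 FPKM may have entered the comparison through their GV level alone, so their low level may be partly set by that filter. The genes that fell had medians of 11.1 and 6.37 FPKM.

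The largest falls in fold among genes with at least 10 FPKM in growing oocytes were led by Srgn, Tex19.2 and Agpat9. Srgn, which encodes the granule proteoglycan serglycin (chromosome 10 of mm9, 61956581 to 61990199, minus strand), had 16.9 and 15.3 FPKM in growing and 2.71 and 1.67 FPKM in GV oocytes, 7.34-fold lower (log2 difference -2.44, SE 0.26, limma adjusted p = 0.000382). Its GV libraries were well below the growing libraries. Tex19.2, a germ cell gene, went from 35.3 and 54.3 to 10.7 and 4.96 FPKM. Agpat9, an acyltransferase of glycerolipid synthesis, went from 26.2 and 35.6 to 2.48 and 9.29 FPKM, and its GV libraries lay far apart. Zfp707, which encodes a zinc finger protein, fell 5.14-fold, and Cct6a, a subunit of the CCT chaperonin that folds actin and tubulin, 4.38-fold.

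Id3, an inhibitor of E-protein transcription factors (chromosome 4, 135699412 to 135701670, plus strand), had 27.1 and 25.2 FPKM in growing and 5.71 and 6.80 FPKM in GV oocytes (log2 difference -1.91, SE 0.18, limma adjusted p = 0.000178). Ctsd, the lysosomal protease cathepsin D (chromosome 7, 149557053 to 149573943, minus strand), had 43.5 and 51.8 FPKM against 13.7 and 11.7 FPKM. The replicates of both genes were close and the stages did not overlap. Serpinb6a, an intracellular serine protease inhibitor, fell 3.79-fold with 22.9 and 22.8 against 5.84 and 6.20 FPKM. Clec12a, a C-type lectin, fell 4.03-fold and Defb48, a defensin, 4.05-fold, the latter with 14.4 and 4.37 FPKM in GV. All 10 genes of this group, which by the rule had to be called on the deposited scale, were also called without the ERCC factor.

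By absolute amount, Tlcd2, Dppa5a and Zp2 had the largest falls among the genes called. Tlcd2 (chromosome 11, 75275217 to 75284401, plus strand) had 4720.1 and 5088 FPKM in growing and 2762 and 1902 FPKM in GV oocytes, and its call (limma adjusted p = 0.0495) was lost without the ERCC factor (limma adjusted p = 0.190). Dppa5a, a KH-domain protein of germ cells and pluripotent cells, went from 3947 and 3614 to 2018 and 1749.8 FPKM. Of 91 genes with at least 1000 FPKM in either stage, 21 fell (23.1%, against 29.5% of all genes) and 1 rose (1.10%, against 2.85%), and without the factor 6 were lower and 5 higher.

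**Figure D2:**
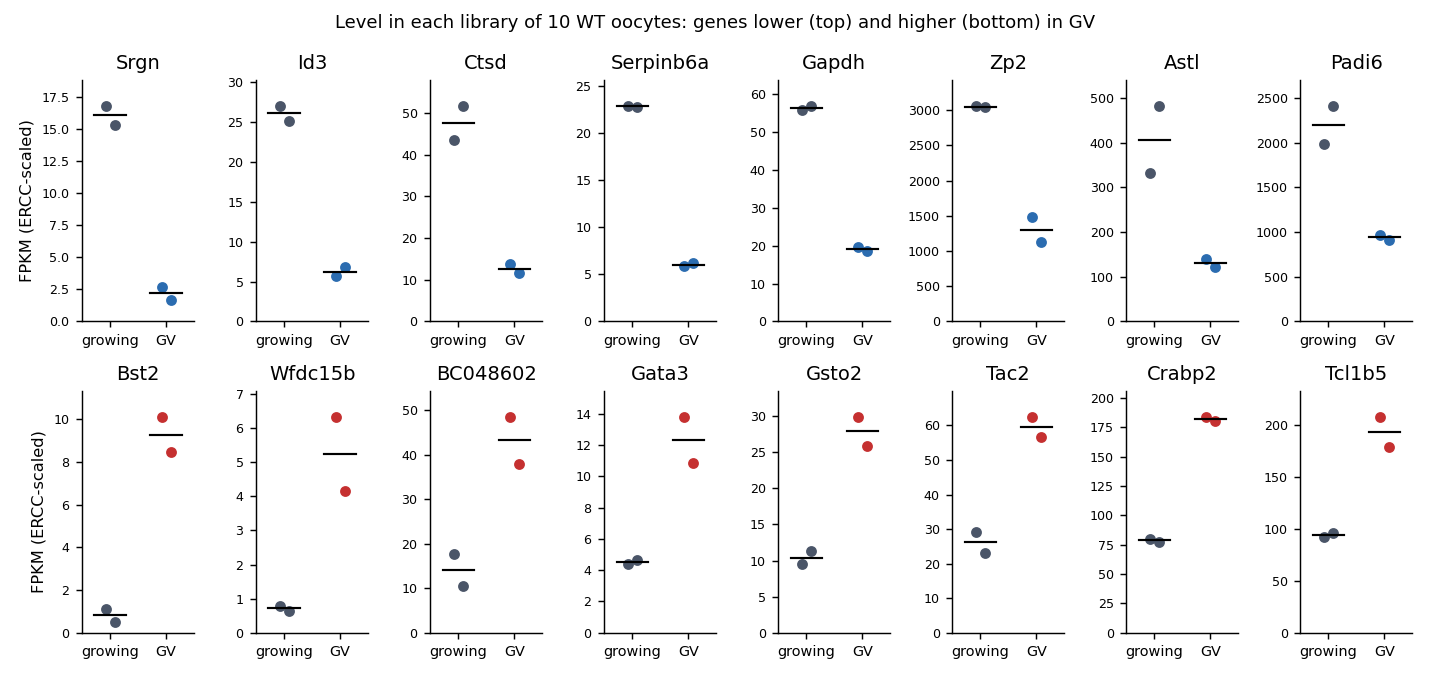
FPKM (ERCC-scaled, axes from 0) in each WT library for 8 genes that fell (top) and 8 that rose (bottom). Points are single libraries, bars the mean of 2. In each of the 16 genes the GV points lie wholly below (top) or above (bottom) the growing points.

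The zona pellucida is the glycoprotein coat of the oocyte, and its 3 genes fell together (median log2 difference -1.24 against -0.30 for all genes). Zp1, which cross-links the filaments, went from 1132 and 1336 to 504 and 419 FPKM, 2.67-fold lower (log2 difference -1.42, SE 0.24, limma adjusted p = 0.00258). Zp2, which carries the domain that binds sperm (chromosome 7, 127270286 to 127288804, minus strand), went from 3062 and 3037 to 1479.7 and 1128 FPKM, 2.34-fold lower. Zp3, its partner in the filaments (chromosome 5, 136455969 to 136464494, plus strand), went from 2950.0 and 3331 to 1862 and 1679 FPKM, 1.77-fold lower. No GV library of the 3 genes overlapped a growing library. Without the ERCC factor the log2 differences were -1.03, -0.85 and -0.44, and the call of Zp3 was lost (limma adjusted p = 0.0933). Without GV replicate 2, 2 of the 3 fell.

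FIGLA, a basic helix-loop-helix factor, is known to drive the zona genes through E-boxes (CANNTG, which reads the same way on both strands). The promoter of Zp3 is shown as an example, for its E-boxes. It is RefSeq sequence of build GRCm38.p6, chr5:135979855-135980154, plus strand, 250 bases before the start and 50 from it on, with 4 E-boxes in capitals.
Zp3: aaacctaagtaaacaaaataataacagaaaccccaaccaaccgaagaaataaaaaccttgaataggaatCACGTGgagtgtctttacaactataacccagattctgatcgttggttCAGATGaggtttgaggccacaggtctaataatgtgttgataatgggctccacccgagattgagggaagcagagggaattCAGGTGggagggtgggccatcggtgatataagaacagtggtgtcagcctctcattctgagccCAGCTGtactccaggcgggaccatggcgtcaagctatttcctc
An E-box was present in 69.3% of the windows of that length at 21657 annotated genes of the mm9 build, so a match is frequent and is not by itself a binding site. With and without the factor, it was present in 66.3% of the genes called lower and 71.7% of those called higher. The part of E-boxes in the fall of the zona genes was not tested. Figla was at 85.5 and 77.7 FPKM in growing and 74.2 and 69.8 FPKM in GV oocytes (log2 difference -0.18, limma adjusted p = 0.593), a sign that turned to 0.21 without the ERCC factor. The promoter sequences at hand held no entry for Zp1 or Zp2, so Zp3 was the only zona gene that could be shown.

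The subcortical maternal complex and the cytoplasmic lattices are stores of maternal protein below the oocyte surface, needed for the first cleavages. Of 8 genes listed, 6 fell and none rose (median -0.85), and without the factor 2 were called lower. Padi6, needed for the lattices, had 1983 and 2415 against 966 and 914 FPKM, 2.34-fold lower. Tle6 had 894 and 1272 against 488 and 476 FPKM, and Nlrp5 (Mater) 414 and 448 against 226 and 199 FPKM. Ooep, named here after its values were seen as the member that moved the other way, was at 2280.0 and 2227 against 2646 and 2244 FPKM (log2 difference 0.11, limma adjusted p = 0.683). Its stages overlapped, whereas those of the other 3 did not. Without GV replicate 2, 3 of the 8 fell.

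Among the signals between oocyte and granulosa cells, 3 of 6 measured genes fell. Gdf9, a growth factor that the oocyte sends to its granulosa cells, went from 3267 and 4007 to 2055 and 1759 FPKM (log2 difference -0.93, SE 0.19, limma adjusted p = 0.00659). Bmp15, its partner, went from 1714 and 1733 to 1302 and 1095 FPKM (limma adjusted p = 0.0486), and Kit, the receptor for the granulosa cell KIT ligand, from 75.7 and 77.8 to 48.6 and 45.4 FPKM. Only Gdf9 of the 3 was called without the ERCC factor, and none of the 6 without GV replicate 2. Of 5 connexins 2 fell, 1 of them also without the factor. Gja4, the oocyte connexin-37, fell from 480.4 and 584 to 363 and 343 FPKM, a call lost without the factor (limma adjusted p = 0.474). Gja1, connexin-43, which is chiefly a granulosa cell gene, fell from 2.45 and 1.27 to 0.229 and 0.141 FPKM. Of the 4 granulosa and cumulus markers that reached 1 FPKM, 2 fell and 2 were not called. Inha fell from 3.11 and 2.40 to 0.410 and 0.512 FPKM and Kitl from 2.29 and 2.58 to 1.46 and 0.971 FPKM. Cyp19a1 was not called, nor was Fshr, at 1.24 and 0.751 against 1.16 and 1.22 FPKM with overlapping stages. Amh was at 0 in both stages. In 3 of the 4 markers both GV libraries lay below both growing libraries, as in 60.2% of all genes. The part of granulosa RNA in the change of Gja1 was not tested.

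Of 15 oocyte transcription factors, 3 fell, a share under the 29.5% of all genes (median -0.39), and none was called without the ERCC factor. Lhx8, a LIM homeobox factor of early oocyte growth, went from 131 and 154 to 81.1 and 75.7 FPKM, and Foxo3, which keeps primordial follicles dormant, from 3.25 and 3.48 to 1.78 and 1.92 FPKM. Nobox, another homeobox regulator of oocyte genes, was at 317 and 397 against 218 and 169.9 FPKM (log2 difference -0.88, limma adjusted p = 0.0508). The GV libraries of all these genes were below the growing libraries, as in 60.2% of all genes.

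Components of the mRNA storage particle differed among themselves: 9 of 18 fell and none rose (median -0.50), while 1 was lower and 1 higher without the factor, and 2 fell without GV replicate 2. Patl2, a repressor of translation in oocytes, went from 82.3 and 82.8 to 38.0 and 27.9 FPKM, 2.51-fold lower, and was called both ways. Pabpc1l, the embryonic poly(A)-binding protein, had 82.0 and 119 against 52.3 and 51.9 FPKM. Zar1 fell from 603 and 725 to 439 and 423 FPKM (limma adjusted p = 0.0352), and its call was lost without the factor (limma adjusted p = 0.455). Zar1l, the symbol of Zar2, was at 639 and 644 against 533 and 504 FPKM (limma adjusted p = 0.222). Ybx2 (MSY2), the main mRNA-coating protein of the oocyte, was at 32.6 and 39.6 against 35.2 and 38.9 FPKM, with overlapping stages.

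Of 23 genes of mRNA decay, 4 fell and none rose, a share under that of all genes (median -0.23 against -0.30). Ythdf2, a reader of methylated adenosine that recruits the deadenylase, had 47.6 and 45.6 against 24.8 and 19.3 FPKM, and was the only one called without the factor. Cnot10, a subunit of the CCR4-NOT deadenylase, fell 1.75-fold. Btg4, the adaptor that brings this deadenylase to maternal mRNA at maturation, was at 2429.7 and 2161 against 2762 and 2067 FPKM (log2 difference 0.06, SE 0.22, limma adjusted p = 0.851).

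For meiotic maturation and the cell cycle, 17 of 40 genes fell and none rose (median -0.43), but without the factor no gene was called lower and 1 was called higher, and 1 was called lower without GV replicate 2. Gpr3, the receptor that keeps cAMP high and the oocyte arrested, had 19.6 and 25.8 against 11.7 and 11.4 FPKM. Wee1, a kinase that inhibits CDK1, had 7.56 and 7.95 against 3.92 and 4.44 FPKM. Ccnb1, cyclin B1, was at 1056 and 1073 against 829 and 626 FPKM (limma adjusted p = 0.0642), and Mos, the kinase upstream of MAP kinase in the maturing oocyte, at 570.1 and 607 against 619 and 509 FPKM (limma adjusted p = 0.790). The stages did not overlap for Ccnb1 and overlapped for Mos.

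Genes of meiotic prophase, whose work is done before oocyte growth, were still listed: 9 of 16 fell and none rose (median -0.58), and 2 were called without the factor. Sycp1, of the transverse filaments of the synaptonemal complex, had 7.60 and 7.81 against 3.76 and 2.59 FPKM. Sycp3, of its axial element, was higher in level, with 112 and 88.3 against 69.9 and 30.7 FPKM, and its GV libraries lay far apart (limma adjusted p = 0.0309, lost without the factor). Rad21l, a meiotic cohesin subunit, fell 2.39-fold at a low level, from 2.59 and 2.19 to 0.816 and 1.17 FPKM.

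Of 15 genes of DNA methylation and imprint protection, 5 fell, a share near that of all genes (median -0.24 against -0.30), and 1 was lower without the factor. Dnmt3l, the cofactor with which the growing oocyte sets methylation, had 102 and 133 against 61.6 and 55.2 FPKM (log2 difference -0.99, limma adjusted p = 0.0192), lost without the factor (limma adjusted p = 0.155). Nlrp2 had 215 and 243 against 126 and 93.1 FPKM and was called both ways. Dnmt3a, the catalytic partner of DNMT3L, was at 22.5 and 24.0 against 19.6 and 19.3 FPKM, and Dnmt1, the maintenance methyltransferase, at 189 and 187 against 159 and 169 FPKM. Neither was called, and both signs turned without the factor.

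Chromatin proteins were split. Among the linker and replacement histones, 3 of 17 fell, among them H2afz (135 and 124 against 78.2 and 61.7 FPKM) and H2afy, a macroH2A gene that fell 1.60-fold, and 1 rose. Without the factor the balance turned, with none lower and 2 higher, and the calls of H2afz (limma adjusted p = 0.0504) and H2afy (limma adjusted p = 0.299) were lost. The one that rose was H1f0, a replacement linker histone, with 7.85 and 7.49 against 10.9 and 10.5 FPKM (log2 difference 0.43, limma adjusted p = 0.0485). H1foo, the oocyte linker histone, was at 4323 and 4656 against 3871 and 3258 FPKM (limma adjusted p = 0.173). The replication-dependent histones were the list with most risers, 6 of 23 where 2.85% of all genes rose, against 2 that fell (Hist2h3b and Hist2h3c1). Of the 60 genes listed only these 23 reached 1 FPKM in a WT library, with median levels of 3.26 FPKM in growing and 3.42 FPKM in GV oocytes. Members near that limit may have passed it through their higher stage alone. Hist1h2ba, a germ cell H2B, rose from 5.93 and 4.50 to 10.6 and 13.0 FPKM and Hist2h2ac from 0.478 and 1.98 to 2.77 and 2.83 FPKM. Without the factor 5 of the 23 were higher and none lower. Most replication-dependent histone mRNAs end without a poly(A) tail, and levels here cover only what an oligo-dT primer copied.

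The oocyte's housekeeping genes did not move as one block. The median of the 13 glycolytic genes was -0.69, and 11 fell. Gapdh (chromosome 6, 125111871 to 125116485, minus strand) had 55.8 and 56.9 against 19.6 and 18.6 FPKM, 2.95-fold lower (log2 difference -1.51, SE 0.14, limma adjusted p = 0.000174), and was the only one called without the factor. Pkm2, pyruvate kinase, had 126 and 177 against 66.5 and 71.2 FPKM. In contrast, genes of pyruvate dehydrogenase and the TCA cycle, by which the oocyte burns pyruvate from its granulosa cells, had a median of -0.38 with 4 of 20 lower, among them Dlst (1.98-fold) and Pdha1 (1.86-fold), and none without the factor. Actb, beta-actin, often used as a reference, fell from 91.2 and 75.9 to 59.5 and 46.0 FPKM (limma adjusted p = 0.0233), and the call was lost without the factor (limma adjusted p = 0.290).

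Genes for folding and for the cytoskeleton fell with glycolysis. Of 17 chaperonin and heat shock genes, 13 fell and none rose (median -0.66), among them Cct6a and Cct4, the latter with 45.4 and 50.9 against 23.1 and 21.2 FPKM, and 3 were called without the factor. Of 23 tubulin and spindle pole genes, 14 fell (median -0.63) and 4 were called without it. Tuba1b, an alpha-tubulin, had 46.9 and 49.0 against 20.8 and 16.9 FPKM, and Kif2c, a microtubule depolymerase, 92.3 and 108 against 46.3 and 41.0 FPKM. Of 18 aminoacyl-tRNA synthetases, 10 fell (median -0.58) and 17 lay below the median of all genes, among them Hars (1.91-fold) and Qars (1.83-fold), but none was called without the factor. Without GV replicate 2 the numbers that fell were 6, 4 and 3 for these lists, and 3 for glycolysis.

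Ribosomal protein and respiratory chain genes had medians nearer to 0. Of 79 cytoplasmic ribosomal proteins, 3 fell and 1 rose, with a median of -0.06 that was 0.33 without the factor, and 72 lay above the median of all genes. Rpl26, which rose, had 67.2 and 51.0 against 104 and 80.5 FPKM, while Rpl9 had 49.5 and 48.2 against 23.5 and 20.1 FPKM and Rps23 118 and 111 against 57.5 and 63.9 FPKM. Many processed copies of ribosomal protein genes and of Gapdh exist in the mouse genome, and since the authors kept uniquely mapped reads, the values of these genes are uncertain. Of 74 nuclear-encoded genes of oxidative phosphorylation, 8 fell and none rose (median -0.10, or 0.29 without the factor, when 6 were higher and 1 lower). Uqcrc1, a core subunit of complex III, had 16.6 and 15.8 against 5.18 and 5 FPKM, and Ndufv1, of complex I, 64.9 and 77.9 against 45.1 and 37.9 FPKM.

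Other parts of gene expression lay between these. Ribosome biogenesis genes fell in 11 of 53 (median -0.33), with Ddx21, a nucleolar helicase, 2.31-fold and Bop1, of the large subunit pathway, 2.2-fold lower. RNA polymerase II and its general factors fell in 5 of 34 (median -0.16), with Ccnt1, cyclin T1, from 20.9 and 24.1 to 11.2 and 8.26 FPKM and Cdk7, the kinase of TFIIH, 1.63-fold lower. Translation factors fell in 9 of 43 (median -0.31), among them Eif1a and Eif3a. Proteasome genes fell in 4 of 31 (median -0.25), among them Psmd13 and Psmd11, and spliceosome genes in 3 of 35 (median -0.13). Snrpb, the core spliceosome protein SmB, stood out with 42.4 and 42.4 against 13.8 and 14.2 FPKM (log2 difference -1.53, SE 0.12, limma adjusted p = 9.83e-05), and Prpf4 fell 2.32-fold. In each of these 5 lists the share that fell was under the 29.5% of all genes, and no gene rose on the deposited scale. Without the factor, 1 was lower and 1 higher in ribosome biogenesis, 2 were higher among polymerase genes, 2 lower and 3 higher in the spliceosome, 1 lower in the proteasome and none called among translation factors.

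Among the remaining lists, 7 of 16 cholesterol synthesis genes fell (Pmvk 2.30-fold and Dhcr7 2.13-fold), as did 8 of 19 lysosomal genes (Ctsd, and Ctsl 2.11-fold at a low level) and 5 of 18 genes of the piRNA and small RNA pathway, the last a share near the 29.5% of all genes. Without the factor 2, 1 and 1 of these were lower. Of the last, Ddx4, the germ cell helicase VASA, had 76.7 and 66.0 against 31.8 and 22.9 FPKM, and Tdrd9 fell 1.87-fold. Of 15 genes of fertilization, cortical granules and egg calcium, 5 fell, again near the share of all genes, and without the factor 1 was lower and 1 higher. Astl, the cortical granule protease ovastacin that cleaves ZP2 after fertilization, had 332 and 483 against 139.6 and 121 FPKM, 3.12-fold lower (log2 difference -1.61, SE 0.29, limma adjusted p = 0.00334), and was called both ways. Trpm7, a calcium and magnesium channel, fell 1.98-fold. Of 8 early zygotic genes, 3 fell (Eif1a, Dppa2 and Zscan4d), all at or under 4 FPKM except Dppa2, which was named after its values were seen. None of the 8 was called without the factor.

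**Figure D3:**
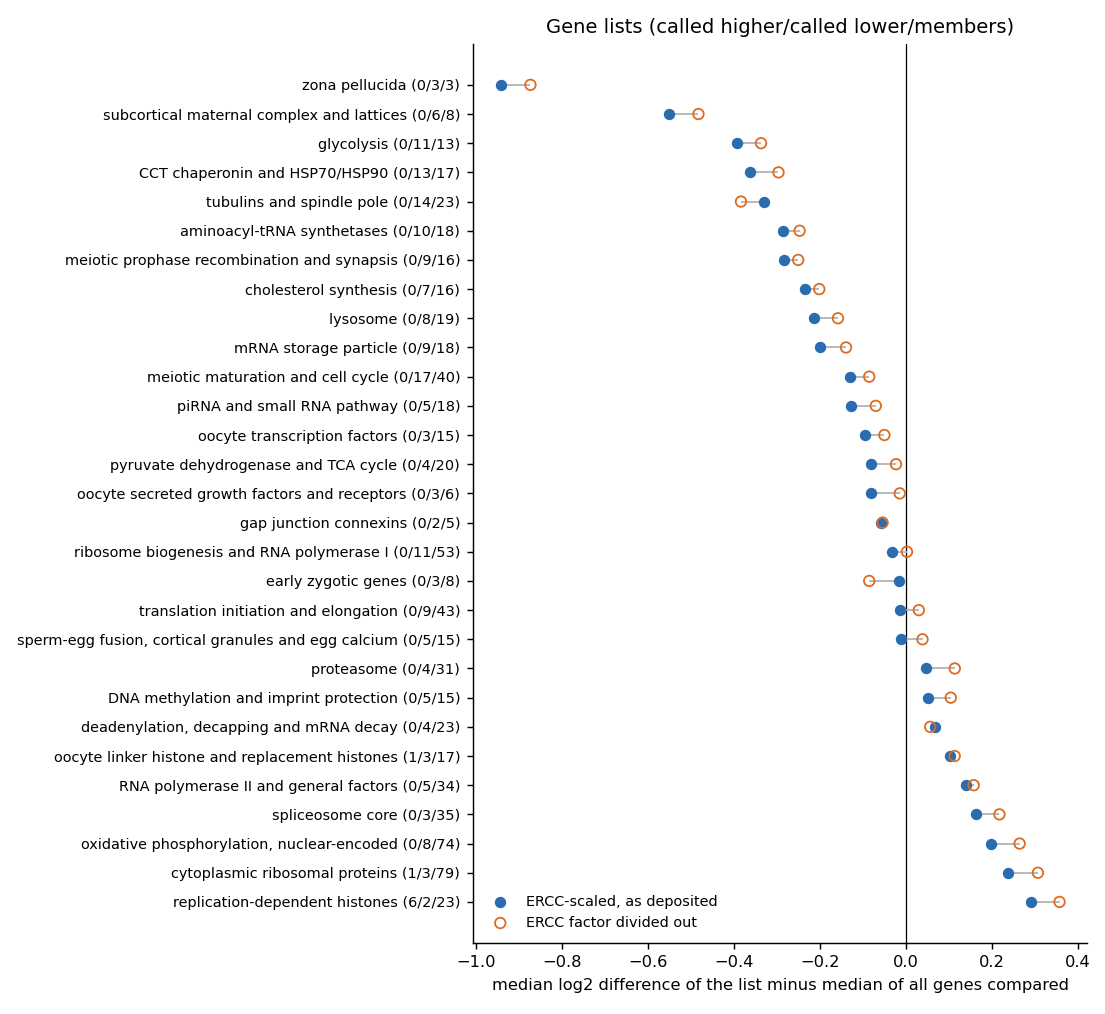
Each row is a gene list, with the numbers called higher, called lower and measured in brackets. The x axis is the median log2 difference (GV minus growing) of the list minus that of all 11052 genes, with the ERCC factor (filled) and without it (open). Zona pellucida genes lie farthest to the left (-0.94 and -0.87), and replication-dependent histones and ribosomal protein genes farthest to the right.

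The genes that rose were sought by the same rule as those that fell. Only Gm12238 and BC048602 met it in this direction. BC048602 had 17.7 and 10.5 FPKM in growing and 48.5 and 38.0 FPKM in GV oocytes, 3.07-fold higher (log2 difference 1.58, SE 0.25, limma adjusted p = 0.00211). Gm12238 had 0 and 16.1 against 32.3 and 76.9 FPKM, a wide spread, and its call was lost without the factor (limma adjusted p = 0.0930). By absolute amount, 3 small RNA genes came first. Snora47 had 367 and 45.3 against 1846 and 1089 FPKM, Mir1893 was at 0 and 0.0110 against 439.9 and 365 FPKM, and Mir3068 was listed at 0 in both growing libraries and at 258 and 205 FPKM in GV. Short RNA genes are divided by a small length in FPKM, and their values say little about the mature small RNA, which has no poly(A) tail.

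The other risers described here were chosen after their values were seen, from those largest in fold or in amount among the genes called with and without the factor, with no fixed rule. Bst2 (tetherin), an interferon-induced membrane protein (chromosome 8, 74058163 to 74061336, minus strand), had 1.11 and 0.524 against 10.1 and 8.44 FPKM, 9.27-fold higher after its growing mean was set to 1 FPKM. The next in fold were Wfdc15b, which encodes a WAP-domain protein, with 0.790 and 0.654 against 6.32 and 4.16 FPKM, and 1700030O20Rik, 3.53-fold higher with GV libraries that lay far apart. Prss37, a protein of the trypsin family, rose 2.85-fold. Xaf1, also interferon-induced, had 1.93 and 1.72 against 6.07 and 4.28 FPKM. Gata3, a zinc finger transcription factor, had 4.40 and 4.62 against 13.8 and 10.8 FPKM. In all these genes both GV libraries lay above both growing libraries.

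Crabp2, a carrier of retinoic acid (chromosome 3, 87752588 to 87757298, plus strand), had 79.9 and 77.4 against 184 and 180.0 FPKM (log2 difference 1.2, SE 0.18, limma adjusted p = 0.00154). Tac2, which encodes neurokinin B, had 29.3 and 23.2 against 62.4 and 56.7 FPKM, and Gsto2, a glutathione transferase, 9.46 and 11.3 against 29.9 and 25.9 FPKM. The stages did not overlap in any of the 3 genes. Fam25c had 27.2 and 17.6 against 64.9 and 55.9 FPKM.

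The Tcl1 cluster of chromosome 12, which encodes small activators of AKT expressed in oocytes, was split. Tcl1b5 (106414568 to 106419353, plus strand) rose from 92.3 and 95.9 to 208 and 179 FPKM, and Tcl1b2 from 227 and 246 to 369.9 and 320.4 FPKM (limma adjusted p = 0.0492). Tcl1, the most abundant, was at 2024 and 2015 against 1907 and 1547 FPKM (limma adjusted p = 0.354), Tcl1b1 at 1028 and 954 against 1249.7 and 1058 FPKM, and Tcl1b3 and Tcl1b4 at log2 differences of -0.06 and 0.04. The Tcl1b genes resemble each other in sequence, so that unique mapping may divide their reads unevenly.

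Promoters of the genes that rose held fewer CpG dinucleotides. In windows of 250 bases before and 50 from the 5' end of each annotated gene in mm9, the median number of CpG was 8 in 233 genes called higher with and without the factor, 17 in 362 genes called lower both ways, and 19 in 10646 genes of the comparison. The difference was smaller at higher levels. Under a mean of 5 FPKM the medians were 7 for the risers and 18 for all genes, and from 5 FPKM on they were 12 and 20. A GC box (GGGCGG on either strand) was present in 40.8% of the risers, 55.2% of the genes called lower and 58.5% of all genes compared, against 44.7% of all annotated genes of the table. Windows were found for 92.1% of the risers and 97.6% of the genes called lower. The following RefSeq promoters (GRCm38.p6, 300 bases each) were chosen to show a window with few and one with many CpG, which are in capitals. Tcl1b5 (chr12:105176094-105176393, plus strand) and Fam25c (chr14:34355344-34355643, minus strand) rose and have 2 each, while Id3 (chr4:136143572-136143871, plus strand) and Ctsd (chr7:142387778-142388077, minus strand) fell and have 19 and 33.
Tcl1b5: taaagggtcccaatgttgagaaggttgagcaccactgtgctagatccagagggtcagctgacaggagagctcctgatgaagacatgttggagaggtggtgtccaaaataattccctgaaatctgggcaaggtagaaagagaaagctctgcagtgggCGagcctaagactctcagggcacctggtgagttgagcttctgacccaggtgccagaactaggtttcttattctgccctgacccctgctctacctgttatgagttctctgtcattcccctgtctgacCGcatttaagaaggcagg
Fam25c: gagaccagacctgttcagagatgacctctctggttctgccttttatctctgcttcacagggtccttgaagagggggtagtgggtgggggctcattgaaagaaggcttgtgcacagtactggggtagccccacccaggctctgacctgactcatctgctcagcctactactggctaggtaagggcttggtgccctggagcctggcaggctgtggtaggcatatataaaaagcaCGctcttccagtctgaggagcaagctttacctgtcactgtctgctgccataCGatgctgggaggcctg
Id3: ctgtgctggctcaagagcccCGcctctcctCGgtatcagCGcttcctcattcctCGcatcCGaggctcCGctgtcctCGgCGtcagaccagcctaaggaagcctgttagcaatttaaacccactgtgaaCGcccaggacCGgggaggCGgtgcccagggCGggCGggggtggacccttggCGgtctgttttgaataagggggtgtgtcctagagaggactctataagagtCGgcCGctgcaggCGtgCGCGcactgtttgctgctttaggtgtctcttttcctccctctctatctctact
Ctsd: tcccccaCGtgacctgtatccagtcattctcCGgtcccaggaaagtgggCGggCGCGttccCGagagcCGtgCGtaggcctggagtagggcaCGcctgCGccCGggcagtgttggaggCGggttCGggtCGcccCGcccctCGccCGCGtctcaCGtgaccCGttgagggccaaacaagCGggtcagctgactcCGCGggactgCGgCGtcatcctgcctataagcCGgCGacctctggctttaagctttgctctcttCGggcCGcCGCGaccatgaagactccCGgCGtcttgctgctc
The groups overlapped, since Gata3 and Batf3 rose with 22 and 34 CpG in this window, and Tex19.2 and Padi6 fell with 2 each.

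Transcript length went weakly with the difference. A coding transcript of the same symbol was found for 10228 genes (92.5%), of which 6806 had at least 5 FPKM in either stage. Across these, the Spearman correlation of the log2 difference with coding length was -0.16, with the number of exons -0.16 and with the length of the 3' untranslated region -0.08. The relation was not a steady one. The genes were divided by coding length into 5 groups of about equal number. From 75 to 618 nt the median log2 difference was -0.15 and 17.1% fell, from 1416 to 2169 nt it was -0.47 and 45.3% fell, and in the longest group it was -0.34. Without the genes of ribosomal proteins and oxidative phosphorylation, most of which are short, the correlation with coding length was -0.14. The genes share libraries and base composition, so these are descriptions of the 4 libraries.

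**Figure D4:**
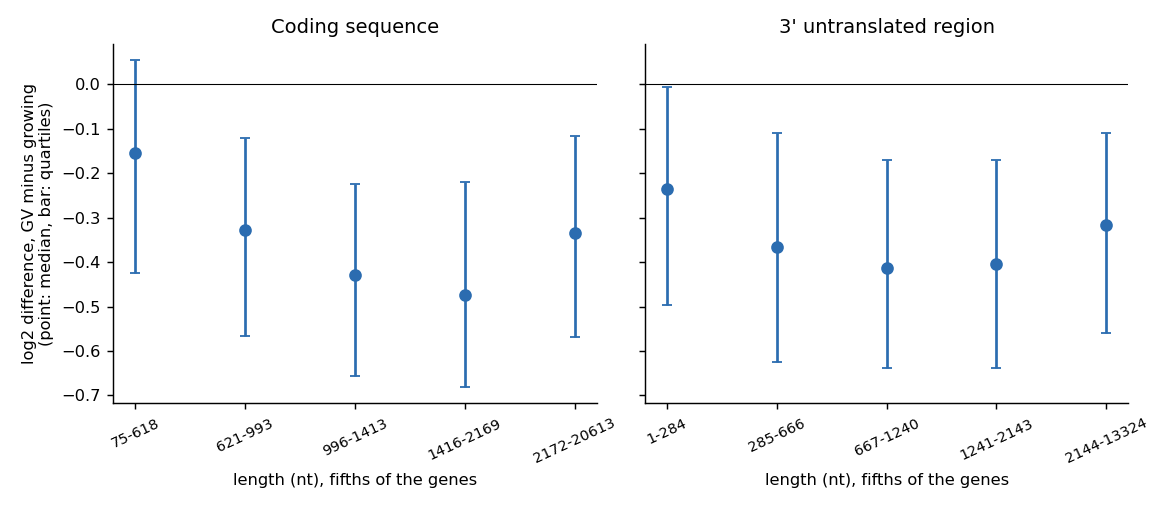
Median (point) and quartiles (bar) of the log2 difference, GV minus growing, in 5 groups of the 6806 genes of about equal number, by length of the coding sequence (left) and of the 3' untranslated region (right). On the left the shortest group lies highest (-0.15) and the group of 1416 to 2169 nt lowest (-0.47), and the quartiles of neighbouring groups overlap.

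Cytoplasmic polyadenylation elements are short U-rich signals by which stored mRNAs gain their tails at maturation. They were searched as TTTTAT or TTTTAAT in the last 100 nt of the 10228 transcripts. The median log2 difference was -0.31 in 8204 transcripts with none, -0.28 in 1703 with 1 and -0.24 in 321 with at least 2, a range much smaller than the spread of the genes within each class. The correlation with their number was 0.03.

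Whether growth changed these genes to a like degree without ZAR1 and ZAR2 was asked with the interaction of genotype and stage. The change from growing to GV was more negative on the log2 scale in Zar1/2-null than in WT oocytes for 1168 genes (10.6%) and more positive for 280 (2.53%). Without the factor these were 374 and 241, of which 373 and 202 were shared with the deposited scale. With scaling to equal medians the balance turned, with 132 more negative and 244 more positive. The more negative ones were 658 without WT growing replicate 1, 724 without growing replicate 2 and 523 without GV replicate 1, and the more positive ones 150 without GV replicate 2. The median over all genes was -0.50 in Zar1/2-null and -0.30 in WT oocytes. Of the 3258 genes that fell in WT, the interaction was called for 596 (461 more negative, 135 more positive), and of the 315 that rose, for 92 (84 more negative, 8 more positive). The comparison of each genotype used its own growing and GV libraries. The WT libraries by which a gene fell or rose enter its interaction with opposite sign. These splits are therefore partly set by the choice of genes, and no conclusion is drawn from them.

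The zona genes, Gdf9, Bmp15, Id3 and Ctsd had no interaction call, with interaction values between -0.38 and -0.11. Leaving out small RNA genes, Srgn had the largest interaction, as it went from 0.206 and 0.153 to 18.2 and 25 FPKM in Zar1/2-null oocytes, where in WT it fell (interaction 6.68, SE 0.37, limma adjusted p = 4.65e-06). Il17b, a cytokine, was at 77.3 and 77.4 against 64.2 and 54.7 FPKM in WT, and at 3.42 and 2.76 against 69.2 and 63.9 FPKM in Zar1/2-null oocytes. For Srgn, Il17b and Pnpla3, a lipase, the Zar1/2-null growing level was far under the WT growing level, and the GV levels were nearer to each other for Il17b. In the other direction, Rhbdf1, an inactive rhomboid, was at 15.6 and 10.9 against 24.5 and 24.8 FPKM in WT and went from 34 and 29.8 to 4.24 and 11.3 FPKM in Zar1/2-null oocytes. Khdc1c, of a KH-domain family of oocytes, went from 41.4 and 38.7 to 30.4 and 18.4 FPKM in WT and from 20.5 and 14.4 to 0.507 and 1.08 FPKM in Zar1/2-null oocytes.

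**Figure D5:**
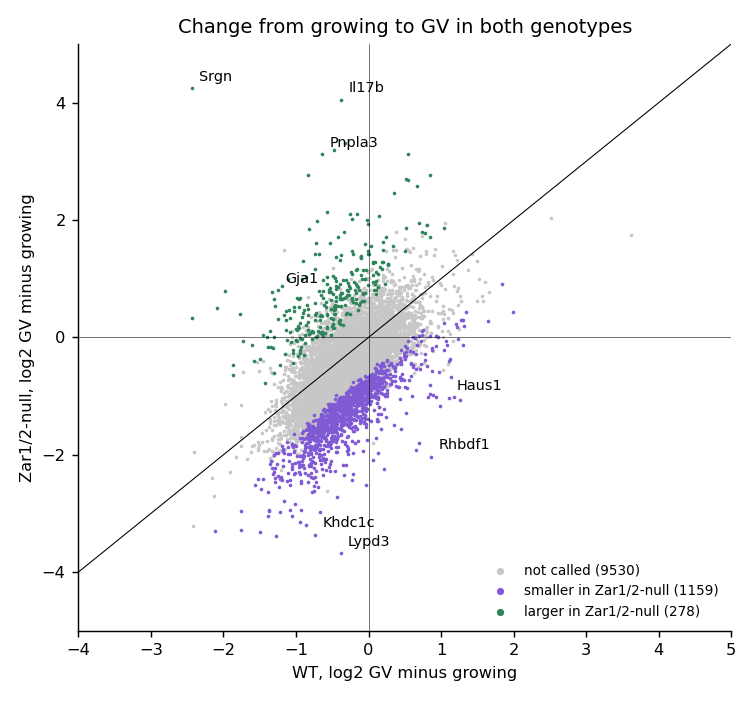
The log2 difference, GV minus growing, in WT (x axis) and in Zar1/2-null oocytes (y axis) for the 10967 genes that are not small RNA genes, with the line of equality. Coloured points passed the interaction test (278 more positive and 1159 more negative in Zar1/2-null, named larger and smaller in the plot). Srgn lies at upper left, below 0 in WT and above 0 in Zar1/2-null oocytes.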

How the data were processed

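RNA from 10 oocytes per library, with ERCC spike-in RNA, was amplified by Smart-seq2. Per the labels and the study's methods, the authors aligned trimmed reads to mm9 with TopHat2 2.1.1, kept unique alignments, computed FPKM over UCSC gene models with Cufflinks 2.2.1, scaled the values by the ERCC share of each library and deposited them as one FPKM table. Read counts per gene were not used here. The study reports total reads and mapping rates of each library, and the relative depths given above were read from the values alone. Values were tested as log2(FPKM + 1) with limma 3.58.1 (R 4.3.3; trend in eBayes) over 12 libraries in 6 groups of 2, for the 11502 genes with at least 1 FPKM in any library. The threshold was a Benjamini-Hochberg adjusted p of 0.05. Fold differences on this scale understate those of low genes. Folds given as "N-fold" are ratios of mean FPKM, with means under 1 FPKM set to 1. The script was tested on simulated data. Nothing states that replicates came from separate animals, so p-values measure only the spread between these samples, which may be technical.

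Named genes were, in each direction, the 10 with the largest fold (called, more than 3-fold, at least 10 FPKM in the higher stage, stages not overlapping, no small RNA genes), the 3 with the largest FPKM difference, up to 2 called members of each of 33 gene lists per direction, 22 fixed oocyte genes and the 3 largest interactions. The genes compared and the lists were chosen with earlier results of these data known. Alternatives changed the scaling, filter, pseudocount, libraries and fold rule. CpG and motif windows came from the mm9 genome, and printed promoters from RefSeq (GRCm38.p6). All sample columns of the table were mapped to a sample.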

Additional observations from a re-analysis of the deposited data

Results flagged for a closer look

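For 31 named genes, the change from growing to GV differed between Zar1/2-null and WT oocytes in limma's interaction test with Benjamini-Hochberg adjustment. Each value is the null change minus the WT change in log2(FPKM + 1), from 2 libraries per group. Genes named for their WT change were chosen by libraries that enter this value with opposite sign, which shifts it. Among genes that fell in WT, the value was above 0 for Srgn (6.68), Defb48 (2.59), Clec12a (2.16), Gja1 (2.04), C1qb (1.61), Inha (1.47), Hist2h3b (1.14), Ctsl (0.72) and Zscan4d (0.64). It was below 0 for Cct4 (-1.86), Uqcrc1 (-1.82), Krt8 (-1.82), Ddx4 (-1.57), Cct6a (-1.53), Zfp707 (-1.19), Ythdf2 (-1.19), Psmd13 (-1.18), Eif1a (-1.17), H2afz (-1.14), Wee1 (-1.11), Patl2 (-1.01) and Bop1 (-0.76), and for Khdc1c (-2.63).

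Of the genes that rose in WT, H1f0 had -0.86, Mir1893 -8.47 and Mir3068 -7.85. Mir1893 varied between 49.8 and 577 FPKM in the Zar1/2-null growing libraries, and Mir3068 was listed at 0 in all 4 Zar1/2-null libraries of these stages. Genes not called in WT were Il17b (4.43), Pnpla3 (3.77), Lypd3 (-3.29), Rhbdf1 (-2.90) and Mos (-0.84). Lypd3, a surface protein of the Ly6 family, was at 1.06 and 1.65 against 1.03 and 0.575 FPKM in WT, and at 14.3 and 19.0 against 0.325 and 0.409 FPKM in Zar1/2-null oocytes.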

How the results depend on the processing

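Without the ERCC factor 371 genes were lower, the median log2 difference was 0.0248, 374 interactions were more negative in Zar1/2-null oocytes, and 107 genes were more than 3-fold higher and 46 lower. Scaling to equal medians gave 189 higher and 253 lower genes, a median of -0.00819, 132 more negative and 244 more positive interactions, so that the balance turned, and 48 genes more than 3-fold lower. With a mean of at least 5 FPKM, 91 genes were higher and 1741 lower, 69 interactions more positive and 250 more negative, and 37 genes more than 3-fold higher and 37 lower. A pseudocount of 0.1 FPKM gave 160 higher, 2122 lower, 166 more positive and 594 more negative, and the 4 WT libraries alone 171 higher and 1932 lower. Leaving out 1 WT library gave 161 to 217 higher and 858 to 2894 lower genes, a median from -0.37 to -0.22, 150 to 213 more positive and 523 to 1004 more negative interactions, and 52 to 78 genes more than 3-fold higher and 92 to 167 lower. The remaining library of that stage was then assumed to vary like the other groups. For the 3-fold counts, leaving out small RNA genes gave 23 higher, a floor of 0.1 FPKM 124 higher and 245 lower, geometric means 42 higher, and 3-fold between every pair of libraries 24 higher and 31 lower. Without both the factor and small RNA genes, a setting chosen after seeing the data, 61 were higher and 28 lower. The causes of these shifts were not tested.

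Signs turned in genes without a call. Without the ERCC factor the log2 difference was 0.21 for Figla, 0.0814 for Zar1l, 0.32 for Mos, 0.13 for Dnmt3a, 0.19 for Dnmt1, 0.0519 for H1foo and 0.00433 for Il17b. With median scaling it was 0.17 for Figla, 0.0426 for Zar1l, 0.28 for Mos, 0.0913 for Dnmt3a, 0.15 for Dnmt1 and 0.0131 for H1foo. Leaving out 1 WT library gave -0.10 to 0.18 for Ybx2, below 0 without growing replicate 1 or GV replicate 2. For Mos it gave -0.21 to 0.0736, above 0 without GV replicate 2. For Btg4 it gave -0.15 to 0.27, below 0 without growing replicate 2 or GV replicate 1. Some of the 102 named genes, such as Ybx2, Mos and Btg4, were not called on the deposited scale and had no call to lose. Of 102 named genes, 48 lost their call without the factor, 55 with median scaling, 39 without GV replicate 2, 38 without growing replicate 2, 19 without growing replicate 1 and 12 without GV replicate 1.

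Replicate numbers are shared between groups, but libraries of one number did not deviate together in every pair of groups (correlations of deviations down to -0.12, and 0.15 between WT growing and GV). With the replicate number as a block, 364 genes were higher and 3416 lower. The number of reads behind each value is unknown, and differences of genes near 1 FPKM rest on few fragments.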
